A study of Rattus norvegicus with 4 samples.

Results

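The genes described here are the 10 that carry pyruvate into mitochondria and open or close its entry into the citric acid cycle: the carrier subunits Mpc1 and Mpc2, the pyruvate dehydrogenase subunits Pdha1, Pdhb and Dlat, the kinases Pdk1, Pdk2, Pdk3 and Pdk4, and the phosphatase Pdp1. They were chosen by gene symbol, and each stood on exactly 1 of the 32883 rows of the count table. All 10 were abundant enough to be tested, among 12316 tested genes. RNA was sequenced from HSC-T6, a rat line of immortalised hepatic stellate cells. The libraries fall into 2 of cells treated with GRK1, which the series title spells out as ginsenoside Rk1, a steroid-like glycoside found in steamed ginseng, and 2 of cells with no treatment (n = 2 per group for every value). The labels give neither dose, duration nor vehicle, and no label says whether replicate libraries stem from independent cultures, so the p-values rest on a spread that could be technical.

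Pyruvate, the end product of glycolysis, crosses the inner mitochondrial membrane through a carrier built of the Mpc1 and Mpc2 proteins. The pyruvate dehydrogenase complex then converts it to acetyl-CoA. The kinases phosphorylate the E1 alpha subunit, the product of Pdha1, and shut the complex down, and the phosphatases reverse this. Pyruvate that does not enter can be reduced to lactate and exported. Stellate cells are the collagen-producing cells of the liver, and their activation has been linked to higher glycolysis.

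Library totals were 18008586 and 18125005 counts with Rk1 and 20430930 and 18175053 counts untreated, and the 10 genes held 0.0719% to 0.0782% of them. CPM are counts scaled to a common library size. Stellate markers Vim, Des, Pdgfrb and Col1a1 were detected in all 4 libraries, and Lrat, the vitamin A esterifying enzyme of quiescent stellate cells, had 0 counts in all. The stellate marker list differed between the groups: of 9 tested markers 6 fell with Rk1 and 0 rose by edgeR. At an unadjusted p under 0.05, 1 was higher, and the median log2 fold change was -0.59. Over all tested genes edgeR called 11.5% higher and 10.5% lower. The 10 markers summed to 14426 and 14363 CPM with Rk1, against 22168 and 21071 CPM untreated. The genes that fell, with log2 fold changes ± SE, were Tagln (-2.84 ± 0.12), Acta2 (-2.44 ± 0.39, at 0.890 and 0.329 CPM with Rk1, against 3.59 and 3.08 CPM untreated), Gfap (-1.88 ± 0.32), Col3a1 (-0.88 ± 0.03), Col1a1 (-0.59 ± 0.04) and Sparc (-0.43 ± 0.03). The part of these markers' fall in the results below was not tested. Of the markers of other liver cells, the 7 listed for hepatocytes summed to 0.223 and 0.329 CPM with Rk1 and 0.197 and 0.330 CPM untreated. The 8 for macrophages summed to 2.50 and 1.86 CPM with Rk1 and 1.67 and 2.03 CPM untreated, and the 7 for endothelium to 1.89 and 2.58 CPM with Rk1 and 2.36 and 2.31 CPM untreated. Ptprc, Adgre1, Kdr and Lyve1 had 0 counts in all 4 libraries. Cd68, the 1 tested macrophage marker, had 1.67 and 1.32 CPM with Rk1, against 1.03 and 1.37 CPM untreated. Vwf and Tek were the 2 tested endothelial markers. Vwf had 1.22 and 1.59 CPM with Rk1, against 1.67 and 1.59 CPM untreated. Tek had 0.556 and 0.877 CPM with Rk1, against 0.689 and 0.549 CPM untreated. Neither Cd68, Vwf nor Tek was called by edgeR. The 6 cholangiocyte markers summed to 1293 and 1285 CPM with Rk1 and 1719 and 1706 CPM untreated. Nearly all of it was Spp1, which is not specific to cholangiocytes, while Epcam reached at most 0.0549 CPM. Sox9 had 2.45 and 2.36 CPM with Rk1, against 7.24 and 8.84 CPM untreated. Spp1 and Sox9, the 2 tested markers of this list, both fell by edgeR, with log2 fold changes of -0.41 ± 0.03 and -1.74 ± 0.17.

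Pdk1, a kinase that inactivates pyruvate dehydrogenase, and Mpc2, a subunit of the pyruvate carrier, rose with Rk1. Pdk1 rose 1.92-fold and Mpc2 1.28-fold. The other 8 genes did not pass the test in either direction. By edgeR's quasi-likelihood test with Benjamini-Hochberg adjustment over all tested genes, 2 of the 10 were higher and 0 lower at an adjusted p under 0.05. Of all tested genes 11.5% were higher and 10.5% lower, 22.0% in all, so 2 of 10 members is close to the background. DESeq2 and limma-voom also called 2 higher and 0 lower, and 0 were lower at an unadjusted p under 0.05. The median log2 fold change of the 10 was 0.04, against 0.0011 over all tested genes.

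**Figure D1:**
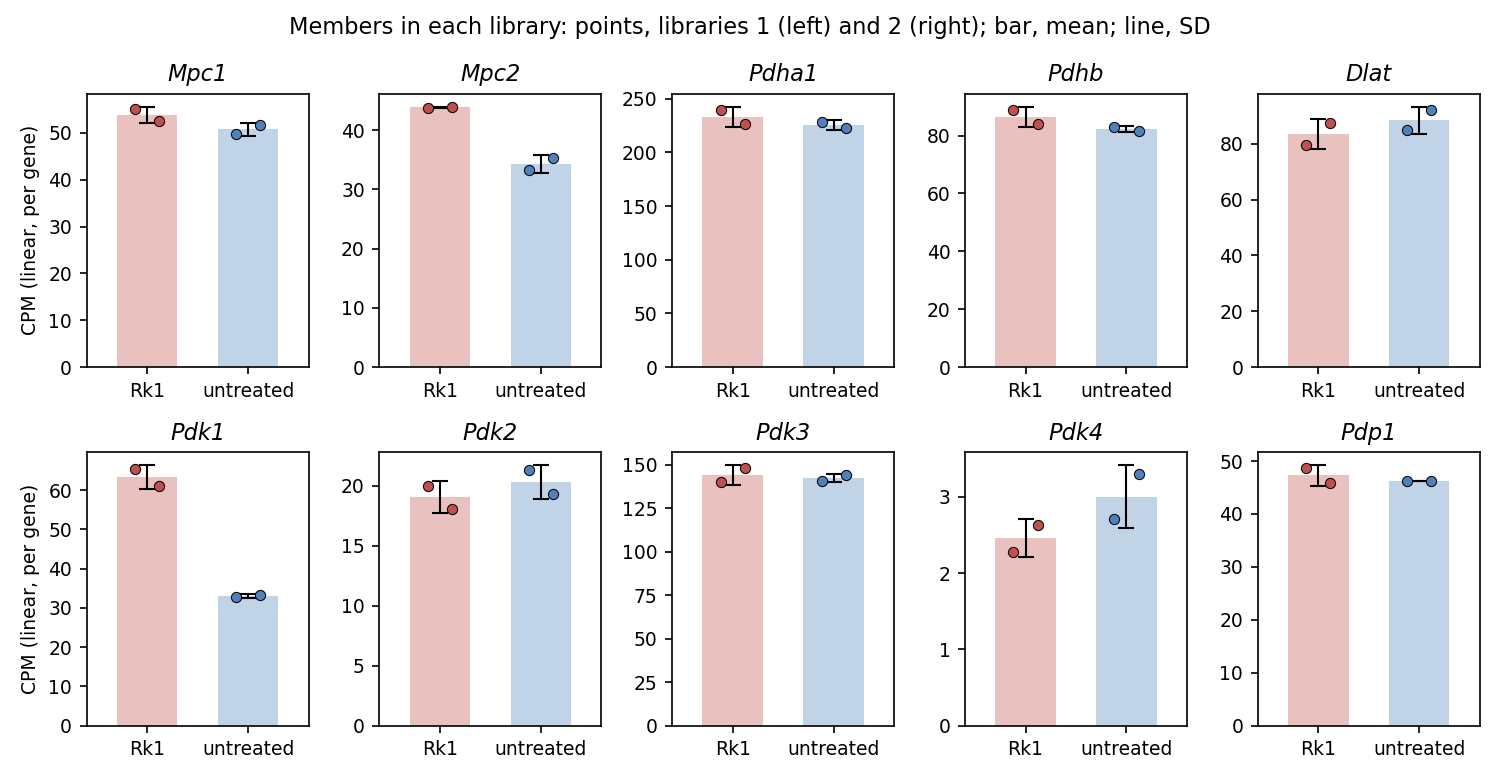
Scaled counts (CPM, linear axis from 0, own scale for each gene) of the 10 genes in the Rk1 and the untreated libraries; points are libraries, bars are means and lines are SD (n = 2 per group). Pdk1 stood at 61.1 and above in the Rk1 libraries and at 33.3 and below in the untreated ones, and Mpc2 at 43.8 and above against 35.4 and below.

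The promoters of 9 of the 10 genes were matched by symbol in RefSeq (rat assembly GRCr8), each a window of 300 bases from 250 before to 50 after the annotated start. Pdp1 had no entry. The windows of both genes that rose are printed with that of Pdk3, the kinase with the most transcript, which did not pass. Capitals mark the core of the hypoxia response element, ACGTG or GCGTG on either strand, the letters bound by the hypoxia-inducible factors (HIF). Pdk1 is a known target of HIF-1 in human and mouse cells. The Pdk1 window lies at chr3:77113264-77113563 on the plus strand, that of Mpc2 at chr13:80261006-80261305 on the plus strand and that of Pdk3 at chrX:62547322-62547621 on the minus strand, all 5′ to 3′ along the gene.
Pdk1: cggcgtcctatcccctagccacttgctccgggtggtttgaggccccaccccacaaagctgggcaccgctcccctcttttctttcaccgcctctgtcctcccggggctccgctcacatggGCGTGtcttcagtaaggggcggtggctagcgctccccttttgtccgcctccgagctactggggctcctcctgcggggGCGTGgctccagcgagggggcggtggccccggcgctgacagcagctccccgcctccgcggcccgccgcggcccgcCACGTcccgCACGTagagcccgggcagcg
Mpc2: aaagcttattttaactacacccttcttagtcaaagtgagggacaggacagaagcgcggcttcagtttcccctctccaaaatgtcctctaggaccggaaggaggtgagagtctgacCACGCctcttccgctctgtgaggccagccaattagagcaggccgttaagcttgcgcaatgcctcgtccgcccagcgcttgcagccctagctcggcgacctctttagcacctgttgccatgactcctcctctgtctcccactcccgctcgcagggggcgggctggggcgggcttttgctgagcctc
Pdk3: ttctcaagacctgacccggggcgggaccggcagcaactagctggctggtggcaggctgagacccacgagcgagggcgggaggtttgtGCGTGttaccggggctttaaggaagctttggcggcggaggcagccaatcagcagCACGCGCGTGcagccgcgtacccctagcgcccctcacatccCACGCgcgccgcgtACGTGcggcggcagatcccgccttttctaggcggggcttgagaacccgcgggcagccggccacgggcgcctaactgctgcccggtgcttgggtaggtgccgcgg

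The Pdk1 window held 4 hypoxia cores, the Pdk3 window 5 and the Mpc2 window 1. Of 33469 rat promoter windows of the same length, 41.6% held at least 1 such core, 3.46% at least 4 and 1.52% at least 5. The windows differ in base composition, with a GC content of 72.0% for Pdk1, 58.7% for Mpc2 and 69.3% for Pdk3. Of the other windows, that of Pdhb held 5, those of Pdha1 and Dlat 3 each, that of Pdk2 2 and those of Mpc1 and Pdk4 0. None of these genes passed the test, and a link between cores and differences was not tested. The E-box CACGTG contains the core ACGTG, so the 2 E-boxes of Pdhb and the 1 of Pdk2 account for 2 cores each. The nuclear receptor half-site AGGTCA, found in 16.2% of windows, was present in Pdhb and Dlat, and the forkhead core GTAAACA, found in 3.78%, in Pdhb. The GC box GGGCGG, found in 33.1% of windows, stood in 7 of the 9 windows matched, and CCAAT, found in 37.5%, in 5 of them. A match of letters does not show that a factor binds there.

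**Figure D2:**
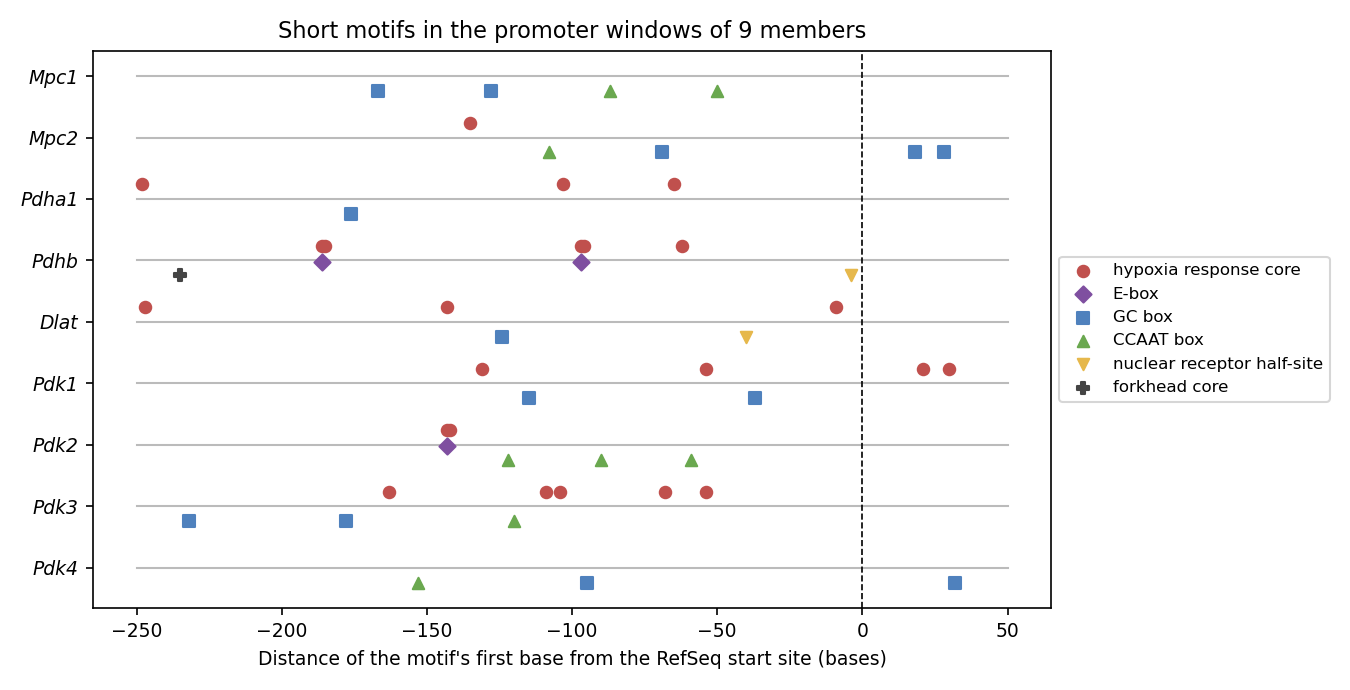
Positions of 6 short motifs in the promoter windows of 9 genes, as the distance in bases of each motif's first base from the RefSeq start site (dashed line); the height within a row only separates the symbols. Pdk1 holds 4 hypoxia cores and Pdk3 5, and Mpc1 and Pdk4 hold none.

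The carrier subunits differed in whether they passed the test. Mpc2 (ENSRNOG00000003150, chromosome 13, 83681322 to 83700213, plus strand, Rnor_6.0) had 43.8 and 44.0 CPM with Rk1, against 33.2 and 35.4 CPM untreated. Both Rk1 libraries were above both untreated ones, and the log2 fold change was 0.36 ± 0.06 (SE, edgeR adjusted p = 0.0053). Mpc1 (ENSRNOG00000012415, chromosome 1, 53026608 to 53038229, minus strand) had 55.1 and 52.6 CPM with Rk1, against 49.8 and 51.7 CPM untreated. Its groups did not overlap either, but the log2 fold change of 0.09 ± 0.05 did not pass (edgeR adjusted p = 0.28), with a 95% interval from 0.975-fold to 1.16-fold. The log2 ratio of Mpc1 to Mpc2 CPM was 0.33 and 0.26 with Rk1 and 0.58 and 0.55 untreated. The ratio was thus lower in both Rk1 libraries than in either untreated one, by a mean of -0.27. An exact two-sided permutation test over 2 against 2 libraries cannot go below p = 0.333, the value it gave here and for each ratio, share and sum that follows. In all, 6 ratios, 8 shares (4 of counts and 4 per length) and the summed kinase level were compared, so adjustment cannot bring any under the threshold. The carrier functions as a complex of both proteins, and protein was not measured.

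The core subunits of the dehydrogenase did not pass. Pdha1, the E1 alpha subunit that the kinases phosphorylate (ENSRNOG00000025383, chromosome X, 37329779 to 37343410, plus strand), had 239.8 and 226 CPM with Rk1, against 229 and 222 CPM untreated. The groups overlapped, and the 95% interval of the difference ran from 0.956-fold to 1.12-fold (edgeR adjusted p = 0.53). Pdhb, the E1 beta subunit (ENSRNOG00000007895, chromosome 15, 18539210 to 18546854, plus strand), had 89.0 and 84.01 CPM with Rk1, against 82.9 and 81.6 CPM untreated. Its groups lay apart by little, and its interval was 0.970-fold to 1.14-fold (edgeR adjusted p = 0.34). Dlat, the E2 subunit that carries the acetyl group on lipoate (ENSRNOG00000009994, chromosome 8, 55062551 to 55087832, minus strand), had 79.6 and 87.3 CPM with Rk1, against 85.1 and 91.9 CPM untreated. These overlapped, with an interval of 0.851-fold to 1.05-fold (edgeR adjusted p = 0.38). For all 3 subunits the intervals leave out the 1.92-fold size of the Pdk1 difference. A row described as a Pdha1-like gene on chromosome 16 had 224 and 202 counts with Rk1 and 241 and 209 untreated, so reads of near-identical copies may be divided. The gene AABR07038021.1, which overlaps Pdha1 on the opposite strand, had at most 5 counts in any library.

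Among the kinases Pdk1 alone passed the test. Pdk1 (ENSRNOG00000001517, chromosome 3, 58530870 to 58558027, plus strand) had 65.5 and 61.1 CPM with Rk1, from 1177 and 1115 counts, against 32.6 and 33.3 CPM untreated, from 663 and 606 counts. The groups were far apart relative to the spread within them, with a log2 fold change of 0.94 ± 0.06 (SE) and an edgeR adjusted p of 8.7e-05. Its p-value ranked 60 among the 12316 tested genes, and 96.6% of tested genes had a smaller absolute log2 fold change. In bulk RNA, more transcript in every cell and more cells with the transcript cannot be told apart. The fall of 6 stellate markers went along with the higher Pdk1, and its part in it was not tested.

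Pdk3, the isozyme known for high activity and weak restraint by pyruvate (ENSRNOG00000012513, chromosome X, 62836131 to 62903554, minus strand), had 140.1 and 148 CPM with Rk1, against 141 and 144 CPM untreated. The groups overlapped, and the 95% interval ran from 0.936-fold to 1.09-fold (edgeR adjusted p = 0.84). This interval is narrow, but the replicate spread behind it could be technical. Pdk2, the broadly expressed isozyme (ENSRNOG00000004172, chromosome 10, 82839153 to 82852660, minus strand), had 19.97 and 18.1 CPM with Rk1, against 21.3 and 19.3 CPM untreated. These overlapped too, with an interval of 0.804-fold to 1.09-fold (edgeR adjusted p = 0.51). Pdk4, the isozyme induced by fasting in muscle and liver (ENSRNOG00000009565, chromosome 4, 30546664 to 30556814, minus strand), had 2.28 and 2.63 CPM with Rk1, from 41 and 48 counts, against 2.71 and 3.30 CPM untreated, from 55 and 60 counts. Both Rk1 libraries lay below both untreated ones, yet the difference did not pass (edgeR adjusted p = 0.39). At this depth the interval for Pdk4 was wide, from 0.577-fold to 1.17-fold.

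Pdp1, the calcium-responsive phosphatase that reactivates the complex (ENSRNOG00000016180, chromosome 5, 25577451 to 25584288, minus strand), had 48.7 and 45.9 CPM with Rk1, against 46.2 CPM in each untreated library. The groups overlapped, with an interval of 0.938-fold to 1.12-fold (edgeR adjusted p = 0.70). Over the 10 members, the groups did not overlap for 5, namely Mpc1, Mpc2, Pdhb and Pdk1, higher with Rk1, and Pdk4, lower with Rk1. Over all tested genes 63.0% had groups that did not overlap, 32.1% higher and 30.9% lower, so this count does not set the members apart from the table.

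**Figure D3:**
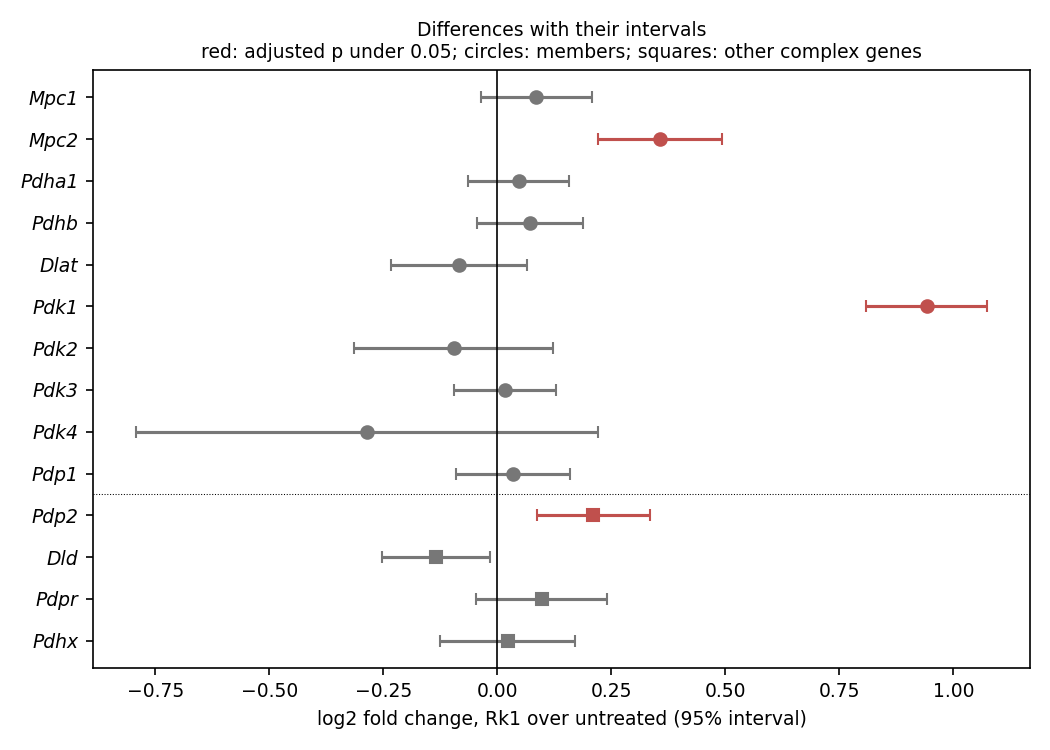
Log2 fold change of Rk1 over untreated with its 95% interval for the 10 members (circles) and 4 other tested genes of the complex (squares); red marks an edgeR adjusted p under 0.05. Pdk1 at 0.94 and Mpc2 at 0.36 lie clear of 0, Pdp2 at 0.21 passes by less, and Pdk4 has the widest interval.

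In these libraries the shares of the kinase transcripts lay apart between the groups, a difference that the permutation test could not establish. Pdk1 held 28.7% and 26.6% of the summed counts of Pdk1 to Pdk4 with Rk1, against 16.5% and 16.6% untreated. Pdk3 held 61.5% and 64.4% with Rk1, against 71.3% and 72.0% untreated, and remained the isozyme with the most counts in every library. Pdk2 held 8.77% and 7.87% with Rk1, against 10.8% and 9.67% untreated. Pdk4 held 1.001% and 1.14% with Rk1, against 1.37% and 1.65% untreated. No share overlapped between the groups (exact permutation p = 0.333, the smallest possible). Shares sum to a whole, so a higher share of Pdk1 lowers the others. Corrected for exon length, Pdk1 made up 33.8% and 31.7% of the kinase transcripts with Rk1, against 19.96% and 20.2% untreated. The summed kinase level was 228 and 229.98 CPM with Rk1, against 198 and 199.96 CPM untreated.

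**Figure D4:**
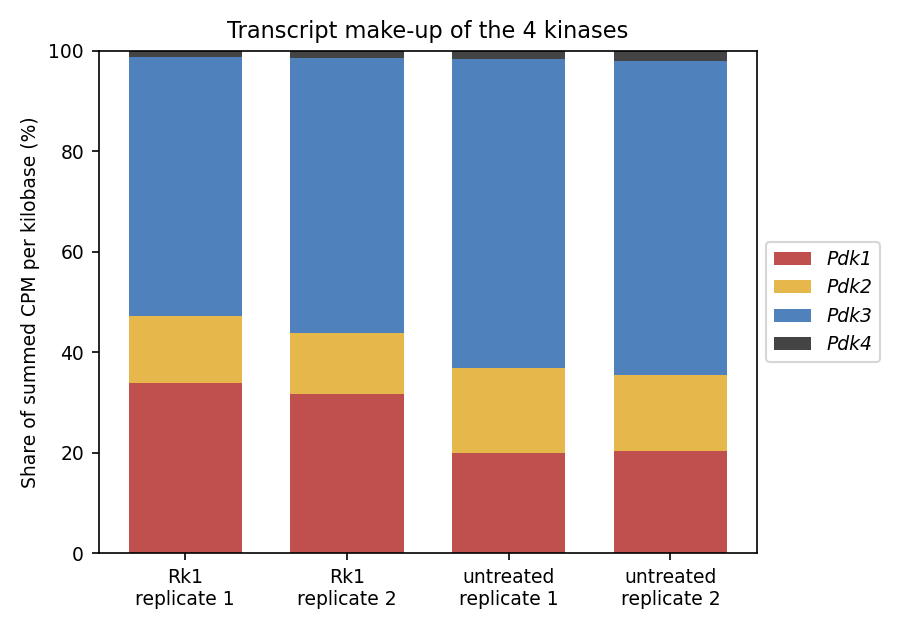
Share of each of Pdk1 to Pdk4 in their summed CPM per kilobase of exon, in percent, for each Rk1 and untreated library. The Pdk1 segment is 31.7% or more in the Rk1 libraries and 20.2% or less in the untreated ones, and Pdk3 is the largest segment in all 4.

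Levels of different genes were compared per kilobase of exon (CPM/kb). With Rk1 the order was Mpc2 at 114 ± 0.26 (SD), Pdha1 at 82.9 ± 3.5, Pdk3 at 65.2 ± 2.6, Mpc1 at 60.6 ± 2.0, Pdhb at 54.3 ± 2.2 and Pdk1 at 40.1 ± 1.9 CPM/kb. Dlat at 32.1 ± 2.1, Pdp1 at 17.5 ± 0.73, Pdk2 at 15.6 ± 1.1 and Pdk4 at 1.56 ± 0.16 CPM/kb followed, and no neighbours in this order overlapped. In untreated cells Pdk1 stood below Dlat, at 20.9 ± 0.29 and 34.0 ± 1.9 CPM/kb, and the other genes kept their places. Pdp1 and Pdk2, at 17.1 ± 0.0051 and 16.6 ± 1.1 CPM/kb untreated, were the only neighbours there whose libraries overlapped. The per-length level of Mpc2 rests on an exon model of 384 bases, the shortest of the 10, against 2811 for Pdha1. The place of Mpc2 in the order depends on whether that model holds its untranslated ends. The same question stands for the other models, among them that of Pdk2 at 1224 bases.

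Ratios within a library do not depend on scaling. Those of Pdk1 set its counts over genes that did not pass, so they restate its difference and add no separate evidence. The log2 ratio of Pdk1 to Pdp1 CPM, a kinase against a phosphatase, was 0.43 and 0.41 with Rk1 and -0.50 and -0.47 untreated, a mean difference of 0.91. The log2 ratio of Pdk1 to its substrate gene Pdha1 was -1.87 and -1.89 with Rk1 and -2.81 and -2.74 untreated, a difference of 0.89. Against Pdk2 the log2 ratio of Pdk1 was 1.71 and 1.76 with Rk1 and 0.61 and 0.78 untreated. The log2 ratio of Ldha, the lactate dehydrogenase subunit that favours lactate formation, to Pdha1 was 3.29 and 3.33 with Rk1 and 2.75 and 2.70 untreated. In none of these did the groups overlap, which also held for 63.0% of all tested genes taken singly.

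The genes most like Pdk1 over the 4 libraries, by Euclidean distance of log2 CPM after centring each gene on its mean, were Cyp51, a cholesterol synthesis enzyme, Hk2, the hexokinase named in the series title, and Acss2, which makes acetyl-CoA from acetate. Their distances were 0.024, 0.041 and 0.053 log2 units among 9442 genes compared. Hk2 had 164 and 152 CPM with Rk1, against 80.2 and 80.3 CPM untreated, and Cyp51 had 551 and 519 CPM with Rk1, against 276 and 287 CPM untreated. With 4 libraries in 2 groups, likeness reflects mainly a similar size of the difference. Of the members with a negative difference, Dlat had the smallest adjusted p, and the genes nearest to it, Nmral1, Rabepk and Zc3h4, had edgeR adjusted p-values of 0.41 to 0.57.

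Among the other genes of the complex, 1 of 4 tested rose and 0 fell by edgeR, with 1 lower at an unadjusted p under 0.05. Their median log2 fold change was 0.06. Over all tested genes edgeR called 11.5% higher and 10.5% lower. Pdp2, the second catalytic phosphatase, had 49.1 and 48.3 CPM with Rk1, against 41.0 and 43.1 CPM untreated (log2 fold change 0.21 ± 0.05, edgeR adjusted p = 0.029). It was not called without Rk1 replicate 1 (0.20), Rk1 replicate 2 (0.22), untreated replicate 1 (0.17) or untreated replicate 2 (0.24), nor by DESeq2 (adjusted p = 0.24), and DESeq2 called 0 of the 4. The log2 ratio of Pdp1 to Pdp2 was -0.01 and -0.07 with Rk1 and 0.17 and 0.10 untreated. Dld, the E3 subunit shared with other dehydrogenases, had 179 and 193 CPM with Rk1, against 202 and 207 CPM untreated, and did not pass (edgeR adjusted p = 0.10). Pdpr, the regulatory subunit of the phosphatase, and Pdhx, which anchors E3, had log2 fold changes of 0.10 ± 0.06 and 0.02 ± 0.06. Pdha2, the testis form of E1 alpha, was at 0 counts throughout, a result that leaves room for at most 0.167 CPM in the library with the fewest counts.

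Of 11 tested genes for making pyruvate or moving it elsewhere, 7 rose and 0 fell by edgeR (0 lower at an unadjusted p under 0.05). The median log2 fold change was 0.25, and DESeq2 called 6 higher and 0 lower. Over all tested genes edgeR called 11.5% higher and 10.5% lower. This list was chosen with earlier results of these data known, so its count is a description and no measure of enrichment. Slc16a3, the lactate exporter of glycolytic cells, had 395 and 358 CPM with Rk1, against 179 and 166 CPM untreated (1.13 ± 0.06, edgeR adjusted p = 6.0e-05). Pkm, a pyruvate kinase, rose by 0.78 ± 0.06 and Ldha by 0.63 ± 0.04. Both Rk1 libraries lay above both untreated ones for these 3 genes. Me1, the malic enzyme of the cytosol, rose by 0.61 ± 0.05, Pc, which carboxylates pyruvate inside mitochondria, by 0.32 ± 0.06, and Slc16a1, a monocarboxylate carrier, by 0.25 ± 0.04. Me2 (0.21 ± 0.06) was not called under 5 of 13 alternatives. It was not called by DESeq2 (adjusted p = 0.19) or with upper-quartile scaling (log2 fold change 0.185). Nor was Me2 called without Rk1 replicate 2, untreated replicate 1 or untreated replicate 2 (0.14, 0.20 and 0.21). Ldhb, which favours the conversion of lactate to pyruvate, had 12.8 and 14.5 CPM with Rk1, against 14.8 and 12.9 CPM untreated, and did not pass (edgeR adjusted p = 0.93). Nor did the monocarboxylate carrier gene Slc16a7 (-0.12 ± 0.12) or the alanine transaminase genes Gpt (-0.35 ± 0.16) and Gpt2 (-0.20 ± 0.10). Rows described as M2 pyruvate kinase-like may share reads with Pkm.

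Beyond the complex, 4 of 7 tested genes of acetyl-CoA and citrate use rose and 1 fell by edgeR, with a median log2 fold change of 0.44. DESeq2 called 4 higher and 0 lower. Over all tested genes edgeR called 11.5% higher and 10.5% lower, and this list too was chosen with earlier results known. Acss2 (0.93 ± 0.05), Acly, which splits citrate (0.65 ± 0.04), Acaca, which commits acetyl-CoA to fatty acids (0.56 ± 0.04), and Slc25a1, the mitochondrial citrate exporter (0.44 ± 0.05), rose. Cs, which joins acetyl-CoA to oxaloacetate at the entry of the cycle, had 178 and 175 CPM with Rk1, against 178 and 164 CPM untreated, and did not pass (edgeR adjusted p = 0.57). The acetyltransferase gene Kat2a (-0.17 ± 0.05) was the gene that fell, and it was not called without Rk1 replicate 2 (-0.13), untreated replicate 1 (-0.19) or untreated replicate 2 (-0.16).

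Of 10 tested genes for factors known to act on kinase genes, 4 rose and 0 fell by edgeR (0 lower at an unadjusted p under 0.05). The median log2 fold change was 0.18, and DESeq2 called 3 higher and 0 lower. Over all tested genes edgeR called 11.5% higher and 10.5% lower, and this list was also chosen with earlier results known. Hif1a, the oxygen-regulated HIF subunit, which is controlled largely at the protein level, had 404 and 401 CPM with Rk1, against 293 and 295 CPM untreated (0.45 ± 0.04, edgeR adjusted p = 3.9e-04). Ppard, a fatty acid receptor, rose by 0.33 ± 0.05 and the glucocorticoid receptor gene Nr3c1 by 0.33 ± 0.06. Foxo3 rose by 0.28 ± 0.06 but was not called by DESeq2 (adjusted p = 0.081). Nor was Foxo3 called without Rk1 replicate 1 (0.25) or untreated replicate 2 (0.21). Ppargc1a, a coactivator of mitochondrial genes, had 0 counts in all 4 libraries. Of 12 tested targets of the PPAR and FOXO factors, which are also known to act on Pdk4, 0 rose and 0 fell by edgeR, with 2 higher and 2 lower at an unadjusted p under 0.05, and DESeq2 also called 0. Angptl4 had 2.003 and 1.65 CPM with Rk1, against 2.61 and 2.69 CPM untreated (edgeR adjusted p = 0.13). Klf15 (-0.30 ± 0.13) was called only with a replicate block (-0.30), and Acadl (0.15 ± 0.05) with that block (0.15) or with robust dispersions (0.15). Txnip had 459 and 599.6 CPM with Rk1, against 373 and 438 CPM untreated, and was called only without Rk1 replicate 1 (0.56) or untreated replicate 2 (0.50) and with a replicate block (0.38).

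**Figure D5:**
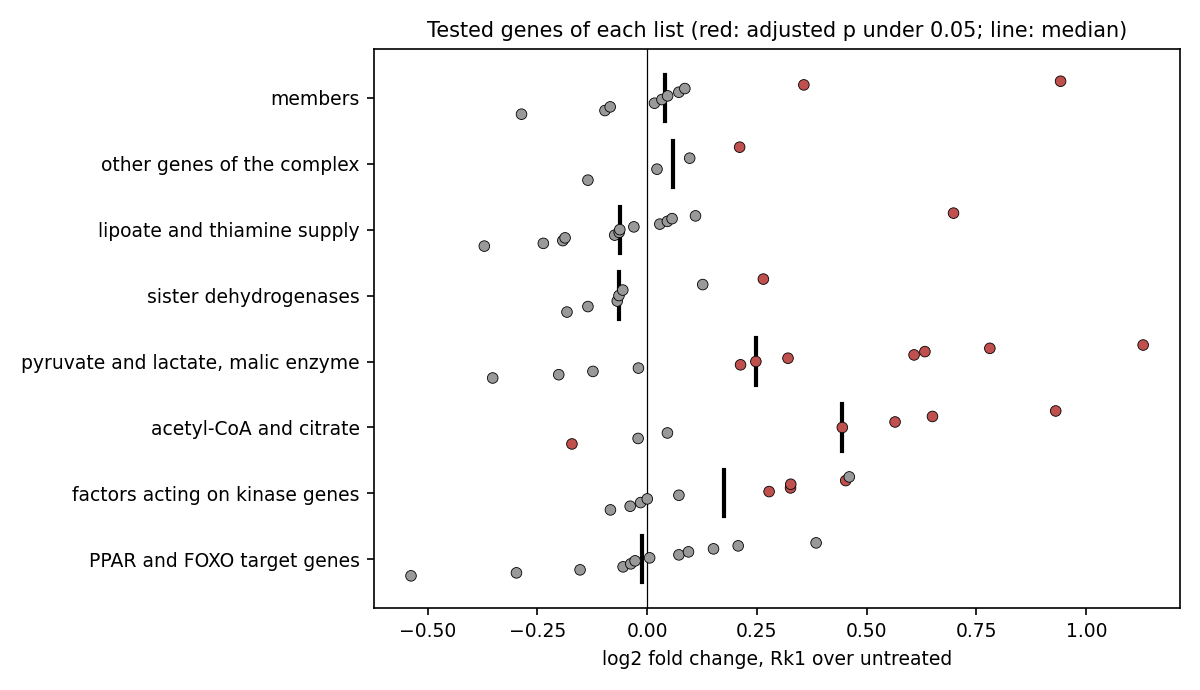
Log2 fold change of Rk1 over untreated for every tested gene of 8 lists; each point is a gene, red marks an edgeR adjusted p under 0.05, and the bar is the list median. The medians are 0.04 for the members, 0.25 for the pyruvate and lactate list and 0.44 for the acetyl-CoA and citrate list.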

How the data were processed

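RNA from 4 HSC-T6 libraries was measured by RNA sequencing. Per the labels' protocols, total RNA was extracted with Trizol and libraries were built with a VAHTS Universal V6 kit. HISAT2 and HTSeq were used, per the submitters' processing notes. For versions, strandedness and multiply matching reads, no setting is given in the sources used here. A table deposited by the authors holds raw counts per Ensembl gene with exon lengths and Rnor_6.0 positions, per the file headers.

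Genes were filtered with edgeR 4.0.16 filterByExpr (minimum count 10, minimum total 15) and scaled by TMM. The test was the two-sided quasi-likelihood F-test for a model of group alone, which leaves 2 residual degrees of freedom, with Benjamini-Hochberg adjustment over all tested genes and a threshold of 0.05. SE is the log2 fold change divided by the square root of F, and intervals are 95%. The steps were run on simulated counts, drawn independently for each library with the spread fitted here. Such a run cannot tell whether the replicate libraries are technical. The counts of replicate libraries differed beyond sampling noise, with a chi-square of 4.56 (Rk1) and 4.49 (untreated) for each degree of freedom. Intervals cover counting error and the spread between replicate libraries, which could be technical. The floor of 3 counts behind the limit for 0 counts covers counting error only.

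Named genes were the 10 members, the 4 genes with the smallest adjusted p in each list and the genes most like a member. Others named, among them called genes beyond the 4, Ldhb, Slc16a7, Gpt, Gpt2, Cs and Ppargc1a, were picked with their values known. The members and lists were chosen with earlier results of these data known. DESeq2 1.42.0 and limma 3.58.1 (voom), other scalings and filters, robust dispersions, a replicate block and each library left out were alternatives. Promoters came from RefSeq (GRCr8). Of the list genes, Mpc1l, Ogdh, Cyp3a2 and Pecam1 matched no row by symbol and were not analysed here. The values of some list genes are not reported here.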

Additional observations from a re-analysis of the deposited data

How the results depend on the processing

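The calls of Pdk1 and Mpc2 held under all 13 alternatives of test, scaling, filter, dispersion, block and left-out library, with log2 fold changes of 0.89 to 0.99 and 0.31 to 0.39 and adjusted p-values of at most 1.3e-04 and 0.037. The other 8 members were not called under any of them. Signs near 0 turned for Pdk3 with upper-quartile scaling (-0.011), without untreated replicate 1 (-7.8e-04) and without Rk1 replicate 2 (-0.024), with a range of -0.024 to 0.056 over left-out libraries. They turned for Pdp1 without Rk1 replicate 1 (-0.0092, range to 0.076), and for Pdhx with upper-quartile scaling (-0.0049), without untreated replicate 1 (-0.0044) and without Rk1 replicate 2 (-0.046, range to 0.088). The cause was not tested.

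With 1 library left out, members called higher stayed at 2 and lower at 0, and genes called in the whole table ranged from 853 to 1160 higher and 902 to 1026 lower, against 1422 and 1289 with all libraries. Without untreated replicate 2 it was 853 higher. The lone library of a group is then assumed to vary like the other group. DESeq2 called 837 higher and 809 lower, and an adjusted p under 0.01 left 665 and 561.

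Alternatives for the lists were chosen after seeing the data. Under DESeq2, 0 other complex genes and 0 sister dehydrogenases rose and 0 acetyl-CoA genes fell. With upper-quartile scaling, and with no filter on low counts, 0 sister dehydrogenases rose. With robust dispersions 1 PPAR or FOXO target rose. With 1 library left out, 0 other complex genes, 0 to 1 sister dehydrogenases and 0 to 1 PPAR or FOXO targets rose, and 0 to 1 each of the pyruvate list, sister dehydrogenases and acetyl-CoA genes fell.

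Same-numbered libraries deviated together weakly (correlation 0.080 over genes), and nothing in the labels says that a number marks a shared culture, so the numbers were not taken to pair them. With the replicate block 1676 genes were higher and 1538 lower, Pdk1 was 0.94 and Mpc2 0.36 (adjusted p = 1.1e-04 and 0.0041), 1 gene of the pyruvate list fell, and 2 PPAR or FOXO targets rose and 1 fell.

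With 1 library left out, the difference in the Pdk1 share ranged from 9.999 to 12.2 percentage points. With 2 libraries a group, such a shift cannot exceed the spread between libraries, so it is no sign of stability. Depth limits Pdk4 most.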

Other observations

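Genes that supply the complex with its cofactors, lipoate and thiamine pyrophosphate, contributed 1 call. Of 13 tested, Slc19a2, a plasma membrane thiamine transporter, rose, with 28.9 and 28.8 CPM with Rk1, against 17.4 and 18.1 CPM untreated (log2 fold change 0.70 ± 0.07, edgeR adjusted p = 8.6e-04). It was called under all 13 alternatives, with values of 0.67 to 0.72. None fell by edgeR, DESeq2 or limma-voom, with 1 lower at an unadjusted p under 0.05, and the list median was -0.06. Over all tested genes edgeR called 11.5% higher and 10.5% lower. Mecr, of mitochondrial fatty acid synthesis, had 12.2 and 12.1 CPM with Rk1, against 13.5 and 14.1 CPM untreated, a log2 fold change of -0.19 ± 0.09 that did not pass (edgeR adjusted p = 0.20).

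Of 7 tested genes of the related dehydrogenase complexes, 1 rose and 0 fell by edgeR (0 lower at an unadjusted p under 0.05). The median was -0.06, and DESeq2 called 0. The shares over all tested genes were 11.5% higher and 10.5% lower by edgeR. Bckdha, an E1 subunit of the branched-chain complex, was at 0.26 ± 0.08 (edgeR adjusted p = 0.044). Bckdha was not called under 6 of 13 alternatives, including without untreated replicate 2 (0.19), Rk1 replicate 1 (0.23) or Rk1 replicate 2 (0.30). Its kinase gene Bckdk, the paralogue of the Pdk genes, had 105 and 102 CPM with Rk1, against 109 and 108 CPM untreated, a log2 fold change of -0.07 ± 0.04. Dbt, the E2 subunit, was at -0.18 ± 0.09 and passed only without Rk1 replicate 2 (-0.33), and Bckdhb, the E1 beta subunit, was at -0.13 ± 0.08.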
